A study of Mus musculus with 97 samples.

Results

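The comparison described here set cortex of APOE4 mice given doxorubicin plus cyclophosphamide (DC) against cortex of APOE4 mice given vehicle, with 8 captured regions of each. It used 16 of the 97 libraries of the series, those whose titles name APOE4, cortex and either DC or vehicle. Of the 19962 genes measured, 122 had a median value over 2 times the negative probe across these 16 libraries, and all counts of genes below refer to these 122. The negative probe is a set of probes with no target in the mouse, so its value measures background.

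All mice were older knock-in animals that carry human APOE3 or APOE4, in controls and treated groups alike. Weekly doses of the DC mice were 3 mg/kg of doxorubicin with 40 mg/kg of cyclophosphamide, those of the DD mice 3 mg/kg of doxorubicin with 10 mg/kg of docetaxel, and vehicle mice received 50% DMSO in PBS, all by intraperitoneal injection 2 times a week for 2 weeks. RNA was read in situ on 8 µm brain sections by GeoMx spatial profiling with a mouse whole-transcriptome probe panel, whose tags are freed by ultraviolet light inside a chosen region and sequenced. The groups used were APOE4 DC cortex, APOE4 DD cortex, APOE3 DC cortex, APOE4 DC hippocampus and the 3 vehicle groups that go with them, with 8 libraries each. How regions were placed, and which region came from which animal, is not given in the sources used here. A captured region holds many cell types, and fewer cells of a type and less RNA per cell cannot be told apart in it.

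Doxorubicin blocks topoisomerase II and inserts into DNA, and cyclophosphamide is a prodrug that the liver turns into an alkylating agent that crosslinks DNA. The pair is a standard regimen for breast cancer, and treated patients can report lasting difficulty with memory and attention. APOE, made in brain mainly by astrocytes, carries lipid between cells, and its APOE4 form is the strongest common genetic risk factor for late-onset Alzheimer disease. The comparison asks which cortical transcripts differ after the regimen in carriers of that form.

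Most of the panel was at background. The median gene stood at 1.02 times the negative probe, and the threshold fell in a dense stretch: Gm52481 at 2.03, Cep126 at 2.02 and Fbxo38 at 2.001 were just inside, and Ap2m1 at 1.999, Aarsd1 at 1.998 and Rrbp1 at 1.99 were just outside. The strongest signals were Mtch2 at 431 times the negative probe, Gm10265 at 229, Gm52523 at 134, Gm46840 at 110 and Tysnd1 at 94.5. Of the 122 genes, 56 lay between 2 and 3 times the negative probe, 39 between 3 and 10, and 27 over 10. Beside 14 predicted or clone names, the set held genes of mitochondria, neurons, transcription, RNA decay and DNA repair.

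The labelled tissue was checked against markers of the cells that cortex holds. Of 11 markers of myelin and oligodendrocytes, Olig2 alone passed, with a median ratio of 9.16 to the negative probe. None of the markers listed for inhibitory neurons, astrocytes, microglia, oligodendrocyte precursors, endothelial and mural cells, meninges, blood or hippocampus passed. The astrocyte list averaged between 0.955 and 1.51 times the negative probe in DC libraries and between 0.905 and 1.38 in vehicle libraries, and the microglia list between 0.790 and 1.53 in DC libraries and between 0.948 and 1.44 in vehicle libraries. Defining markers of cortical cells were thus mostly at background, and no shift in cell makeup was detectable in these libraries.

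Genes that DNA-damaging drugs are known to induce, and those of lipid transport, were at background as well. None of the 19 genes listed for the p53 and DNA damage response, the 13 for cytokines and NF-kB targets, the 15 for complement and interferon, the 9 for senescence or the 12 for APOE and lipid transport passed the threshold. The median ratio to the negative probe was 0.86 for Cdkn1a, the p53-induced cell cycle inhibitor, 0.78 for mouse Apoe, 1.03 for the astrocyte filament gene Gfap, 0.75 for the microglial gene Aif1, 0.64 for the neurotrophin Bdnf and 0.99 for the myelin gene Mbp. No difference in these genes was detectable at this signal. For Apoe there is a further limit, because these knock-in mice carry human APOE and the panel is a mouse panel. Whether its Apoe probe reads the human transcript was not tested, so the Apoe value cannot be taken as the level of human APOE.

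Background differed within the DC group before any gene was compared. The negative probe value was 1.81, 1.95, 2.13 and 2.77 counts in DC replicates 1 to 4 and 14.8, 8.34, 5.76 and 7.32 counts in DC replicates 5 to 8, against 1.55 to 3.96 counts in the 8 vehicle libraries. DC replicates 5 to 8, which came from 2 runs of neighbouring wells on the plate, were the only libraries of the 16 at 5 or more. Total counts ran from 46707 to 312655 in DC libraries and from 36866 to 95612 in vehicle libraries, and counts in the 122 genes from 3572 to 15229 in DC libraries and from 2914 to 8298 in vehicle libraries. The 122 genes held 2.17% and 1.96% of all counts in DC replicates 5 and 6, against 7.21% to 8.75% in vehicle libraries. Between the groups, the negative probe was 1.82-fold higher in DC libraries (two-sided exact permutation test over 8 and 8 libraries, p = 0.0709, adjusted over 5 measures p = 0.118), which did not pass the threshold of 0.05. Over 4 runs of wells against 4 the exact p was 0.286, where 0.0286 is the smallest this design allows. The main results below are therefore given with and without DC replicates 5 to 8.

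**Figure D1:**
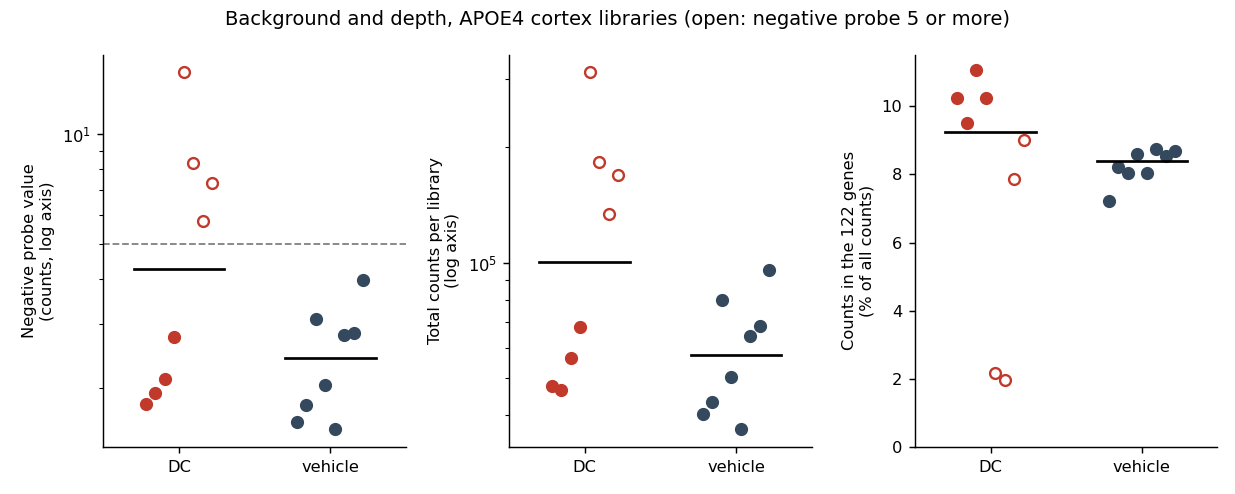
Negative probe value, total counts (both log axes) and the share of counts in the 122 genes, for 8 DC and 8 vehicle libraries; points are libraries, open points have a negative probe of 5 or more (dashed line), bars are medians. DC replicates 5 and 6, at 2.17% and 1.96%, have the lowest shares.

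DC replicates 1 to 4 come from 2 runs of wells. The 122 genes held 10.2%, 9.51%, 11.1% and 10.2% of their counts, all above the 8 vehicle libraries. Because the other 4 DC libraries were left out for their negative probe, the low negative probe of the remaining 4 follows from that choice. The vehicle libraries were all under 5 as well, and what underlies the higher share in the 122 genes was not tested. These measures are given as a description.

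With all 16 libraries, no gene passed the test between DC and vehicle (0 of 122, 0%; edgeR's quasi-likelihood test, Benjamini-Hochberg adjusted p under 0.05), and DESeq2 also called 0 (10 at an unadjusted p under 0.05). At an unadjusted p under 0.05 there were 15 genes (12.3%). The fitted difference was positive for 68 genes and negative for 54, with a median log2 fold change of 0.04, and the DC and vehicle libraries overlapped for all 122 genes. The titles place the DC and vehicle libraries in the same 4 pairs of plate rows, with 2 of each group in a pair; what a pair of rows shares is not given in the sources used here. With the pair of rows as a block, an alternative added after seeing the data, Mtch2 and Hikeshi passed as lower in DC (2 of 122). The regions were the unit of this test, and regions of a group may share an animal, which the labels do not give. Where they do, the p-values of this test are too small by an unknown amount.

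With DC replicates 5 to 8 left out, 9 of 122 genes passed (7.38%), 6 higher and 3 lower in DC, and 33 (27%) had an unadjusted p under 0.05. The higher genes were Ctxn1, Nemp2, Fam177a, Tysnd1, Gm10265 and Gm52523. The lower genes were Mtch2, Ripply2 and Mgat1. The 4 DC libraries did not overlap the 8 vehicle libraries for 6 of 122 genes (4.92%), namely Ctxn1, Tysnd1, Gm10265, Fdx2 and Marcks, higher in DC, and Tomm6, lower in DC. Tomm6 rests on very few counts, with 2, 3, 6 and 3 in DC replicates 1 to 4 against 4 to 10 in vehicle libraries. DESeq2 called 7 genes, all higher: the same 6 and Cd99. With genes chosen by their median ratio over these 12 libraries, 6 of 165 passed, all higher. The DC side of this comparison is 4 libraries from 2 runs of wells, and the same caution on shared animals applies. When the counts of each run were summed, Ctxn1 alone passed (adjusted p = 0.0442), with the run as a random block 6 genes did, and with the pair of plate rows as a block 7 did, 5 higher and 2 lower. The number passing ranged from 1 to 16 as each of the 12 libraries was left out; it was 1, Ctxn1 alone, without DC replicate 1, DC replicate 3, vehicle replicate 7 or vehicle replicate 8, 16 without DC replicate 2 and 14 without vehicle replicate 2.

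The direction of the fitted difference went with signal strength in this smaller comparison. The median log2 fold change was 0.29 over the 27 genes above 10 times the negative probe, -0.05 over the 39 genes between 3 and 10, and -0.26 over the 56 genes between 2 and 3. With all 16 libraries the same medians were -0.03, 0.05 and 0.02. The weakest 56 genes held 5.35% to 6.19% of the counts of the 122 in DC replicates 1 to 4, against 6.19% to 7.86% in vehicle libraries. The part of background in these differences was not tested beyond the values given with the negative probe subtracted.

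**Figure D2:**
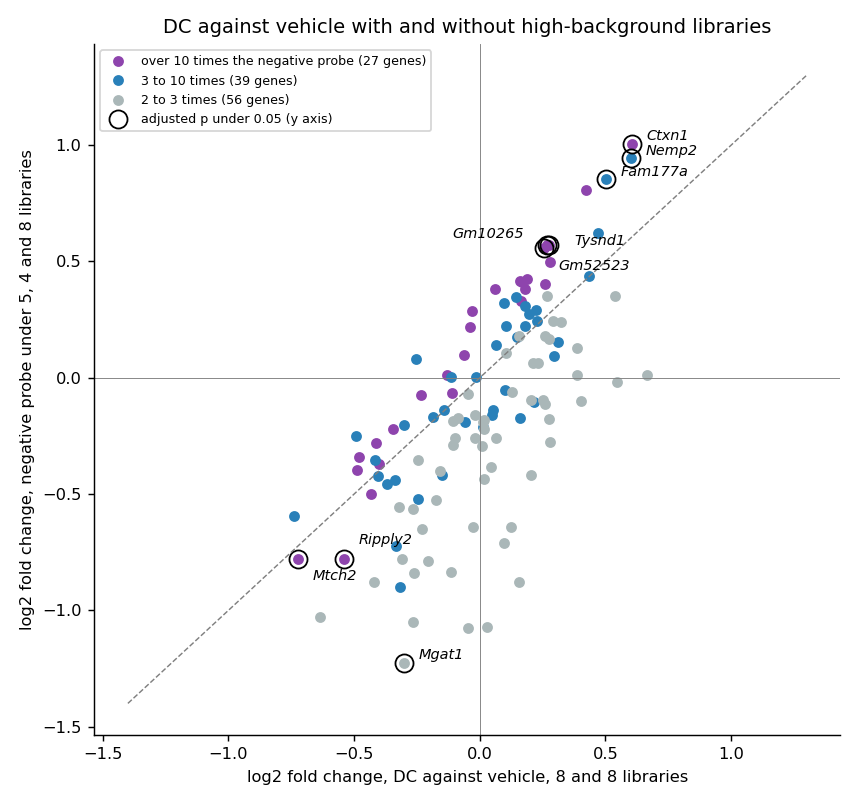
Log2 fold change of DC against vehicle for the 122 genes, with all 16 libraries (x axis) and without DC replicates 5 to 8 (y axis); colour gives the median ratio to the negative probe, rings mark the 9 genes with an adjusted p under 0.05 on the y axis, and the dashed line marks equal values. The 27 strongest genes have medians of -0.03 on the x axis and 0.29 on the y axis, and the 56 weakest 0.02 and -0.26.

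Among the 21 listed mitochondrial genes outside the respiratory chain, 4 passed the background threshold: Mtch2, Coa5, Fdx2 and Tmem65. Mtch2, an outer membrane protein that inserts other proteins into the mitochondrial surface, was the most strongly detected gene of the panel and lies at chr2:90847090-90866810 in mm10. Its normalised count (per 10000 counts of the 122 genes, TMM-scaled) had a lowest value of 926, a median of 1424 and a highest value of 2264 in DC libraries, against 1647, 2461 and 3517 in vehicle libraries. All 8 DC libraries were below the vehicle mean, and the 2 groups overlapped. The log2 fold change was -0.72 ± 0.22 (SE, n = 8 and 8), a 1.65-fold lower level in DC that missed the threshold (edgeR adjusted p = 0.0904).

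The difference in Mtch2 was as large without the high-background libraries. DC replicates 1 to 4 had 1332, 2039, 1515 and 1120 normalised counts, and without DC replicates 5 to 8 the log2 fold change was -0.78 ± 0.24 (edgeR adjusted p = 0.0248, n = 4 and 8). Without any scaling to the 122 genes, on the total of all genes, it was -0.49 and did not pass (adjusted p = 0.345). Mtch2 took a median of 16.9% of the counts of the 122 genes in DC libraries and 23.6% in vehicle libraries. In each of the 4 pairs of plate rows the DC mean was below the vehicle mean, and with the pair as a block the log2 fold change over 16 libraries was -0.72 ± 0.19 and passed (edgeR adjusted p = 0.0291). The largest drop, a log2 ratio of -1.35, was in the pair that holds DC replicates 5 and 6. In that pair Ctxn1, Tysnd1, Gm10265 and Gm52523 were lower in DC as well, with log2 ratios from -0.95 to -1.17. Each of them was higher in DC in the other 3 pairs. What the drop in that pair reflects was not tested. For Mtch2 the sign was negative in all 33 alternatives of the comparison of 16 libraries, and 6 of them passed.

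The other 3 mitochondrial genes lay on the opposite side of 0, and none passed. Fdx2, a ferredoxin of iron-sulfur cluster assembly, had 37.8, 105 and 141 normalised counts (lowest, median, highest) in DC libraries, against 63.3, 85.1 and 95.6 in vehicle libraries. Coa5, which helps to assemble cytochrome c oxidase, had a median of 187 in DC libraries and 154 in vehicle libraries. Tmem65, a protein of the inner mitochondrial membrane, had median ratios to the negative probe of 4.05 in DC libraries and 3.89 in vehicle libraries. Atp5a1, the single passing member of 30 listed genes of oxidative phosphorylation, lay close to the threshold, with median ratios of 1.96 in DC libraries and 2.07 in vehicle libraries.

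Of 30 listed neuronal and synaptic genes, 7 were above the threshold: Ctxn1, Calm2, Marcks, Sprn, Stmn1, Camk2n1 and Sncb. None passed with all 16 libraries (0 of 7), 5 had positive and 2 negative fitted differences, and their median log2 fold change was 0.16 beside 0.04 for all 122 genes. Without DC replicates 5 to 8, Ctxn1 alone of the 7 passed, and their median was 0.10 beside -0.14 for all 122. Ctxn1, which encodes cortexin 1, a small membrane protein of cortical neurons, carried the smallest p among the higher genes and lies at chr8:4257646-4259274 in mm10. It had 64.6, 166 and 285 normalised counts (lowest, median, highest) in DC libraries, against 69.0, 125 and 145 in vehicle libraries. The DC libraries fell into separate ranges, with 257, 180, 285 and 240 in replicates 1 to 4 and 74.9, 64.6, 134 and 152 in replicates 5 to 8. The log2 fold change was 0.61 ± 0.23 with all libraries (edgeR adjusted p = 0.267).

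Without DC replicates 5 to 8, Ctxn1 was 2.01-fold higher in DC, with a log2 fold change of 1.00 ± 0.20 (edgeR adjusted p = 0.000346, n = 4 and 8), and the 4 DC libraries were all above the 8 vehicle libraries. It passed in all 23 alternatives of that comparison, with log2 fold changes from 0.88 to 1.39. The comparison of 16 libraries had 33 alternatives, some of which leave libraries out, and Ctxn1 passed in 5. With all 16 libraries kept, these were filterByExpr in place of the negative probe ratio, and the negative probe subtracted. The others left out both libraries of wells F06 and F07 (DC replicates 5 and 6), or, in 2 settings, DC replicates 5 to 8.

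The remaining neuronal genes gave no call. Marcks, a membrane substrate of protein kinase C, had 85.6, 67.0, 69.9 and 72.7 normalised counts in DC replicates 1 to 4, above the range of 34.4 to 59.8 in vehicle libraries, while DC replicates 5 to 8 lay between 41.6 and 55.1. Sprn, a relative of the prion protein, had medians of 81.2 in DC libraries and 65.9 in vehicle libraries. Camk2n1, an inhibitor of the synaptic kinase CaMKII, stood at 2.15 times the negative probe and had a log2 fold change of -0.64 ± 0.26 (edgeR adjusted p = 0.267), or -1.03 ± 0.36 without DC replicates 5 to 8 (adjusted p = 0.0609), with 46.0 normalised counts in vehicle replicate 7 and 5.98 to 25.0 in the other vehicle libraries. Calmodulin gene Calm2 had medians of 32.8 in DC libraries and 38.9 in vehicle libraries. Sncb, which encodes beta-synuclein, had a log2 fold change of 0.39 ± 0.24 with all libraries and 0.01 ± 0.30 without DC replicates 5 to 8.

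The 3 listed transcription regulators above background were Ripply2, Hmga2 and Olig2. Ripply2, a corepressor known from somite formation, had 42.8, 53.1 and 91.8 normalised counts (lowest, median, highest) in DC libraries, against 65.6, 84.4 and 115 in vehicle libraries. Of the 8 DC libraries, 7 were below the vehicle mean. The log2 fold change was -0.54 ± 0.22 (edgeR adjusted p = 0.267) with all libraries and -0.78 ± 0.25 (adjusted p = 0.0354) without DC replicates 5 to 8, where all 4 DC libraries were below the vehicle mean. Hmga2, a chromatin protein of proliferating cells, had medians of 187 in DC libraries and 228 in vehicle libraries, a log2 fold change of -0.48 ± 0.22 that did not pass (edgeR adjusted p = 0.335), and of -0.34 ± 0.22 without DC replicates 5 to 8 (adjusted p = 0.332). Olig2, the transcription factor of the oligodendrocyte lineage, had medians of 47.2 in DC libraries and 46.4 in vehicle libraries.

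Nemp2, which encodes a protein of the inner nuclear membrane, and Fam177a also passed as higher in DC without the high-background libraries. Nemp2 had 40.4, 27.7, 57.7 and 20.6 normalised counts in DC replicates 1 to 4 and 18.3 to 23.1 in DC replicates 5 to 8, against 9.93 to 26.7 in vehicle libraries. All 8 DC libraries exceeded the vehicle mean, and the groups overlapped. DC replicates 5 and 6 were close to background for Nemp2, with 22 and 12 counts at negative probe values of 14.8 and 8.34. Its log2 fold change was 0.60 ± 0.24 with all libraries (edgeR adjusted p = 0.267) and 0.94 ± 0.28 without the 4 libraries (adjusted p = 0.0248). Fam177a had 90.4, 48.5, 50.7 and 45.3 in DC replicates 1 to 4 and 18.9 to 36.6 in DC replicates 5 to 8, against 14.8 to 51.6 in vehicle libraries. Its log2 fold change was 0.50 ± 0.24 with all libraries (edgeR adjusted p = 0.335), 0.85 ± 0.26 without the 4 libraries (adjusted p = 0.0248) and 0.63 without DC replicate 1 as well, which did not pass (adjusted p = 0.212).

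Tysnd1 is a protease that processes enzymes imported into peroxisomes. Tysnd1 and the predicted genes Gm10265 and Gm52523 were lower in DC replicates 5 and 6 than in DC replicates 1 to 4. In the pair of plate rows that holds DC replicates 5 and 6, their DC means were below the vehicle means. In the pair that holds DC replicates 7 and 8 they were above, with log2 ratios of 0.34, 0.58 and 0.35 in the same order. Tysnd1 had 868, 593, 743 and 631 normalised counts in DC replicates 1 to 4, all above the range of 381 to 494 in vehicle libraries, and 264, 228, 468 and 536 in DC replicates 5 to 8. Its log2 fold change was 0.28 ± 0.20 with all libraries (edgeR adjusted p = 0.645) and 0.57 ± 0.16 without the 4 libraries (adjusted p = 0.0248). Gm10265 had a log2 fold change of 0.27 ± 0.21 with all libraries and 0.57 ± 0.17 without the 4, and Gm52523 had 0.25 and 0.56 ± 0.17 in the same comparisons. Pcbd2, the other passing member of the 9 listed peroxisomal and pterin genes, had medians of 50.5 in DC libraries and 56.9 in vehicle libraries.

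**Figure D3:**
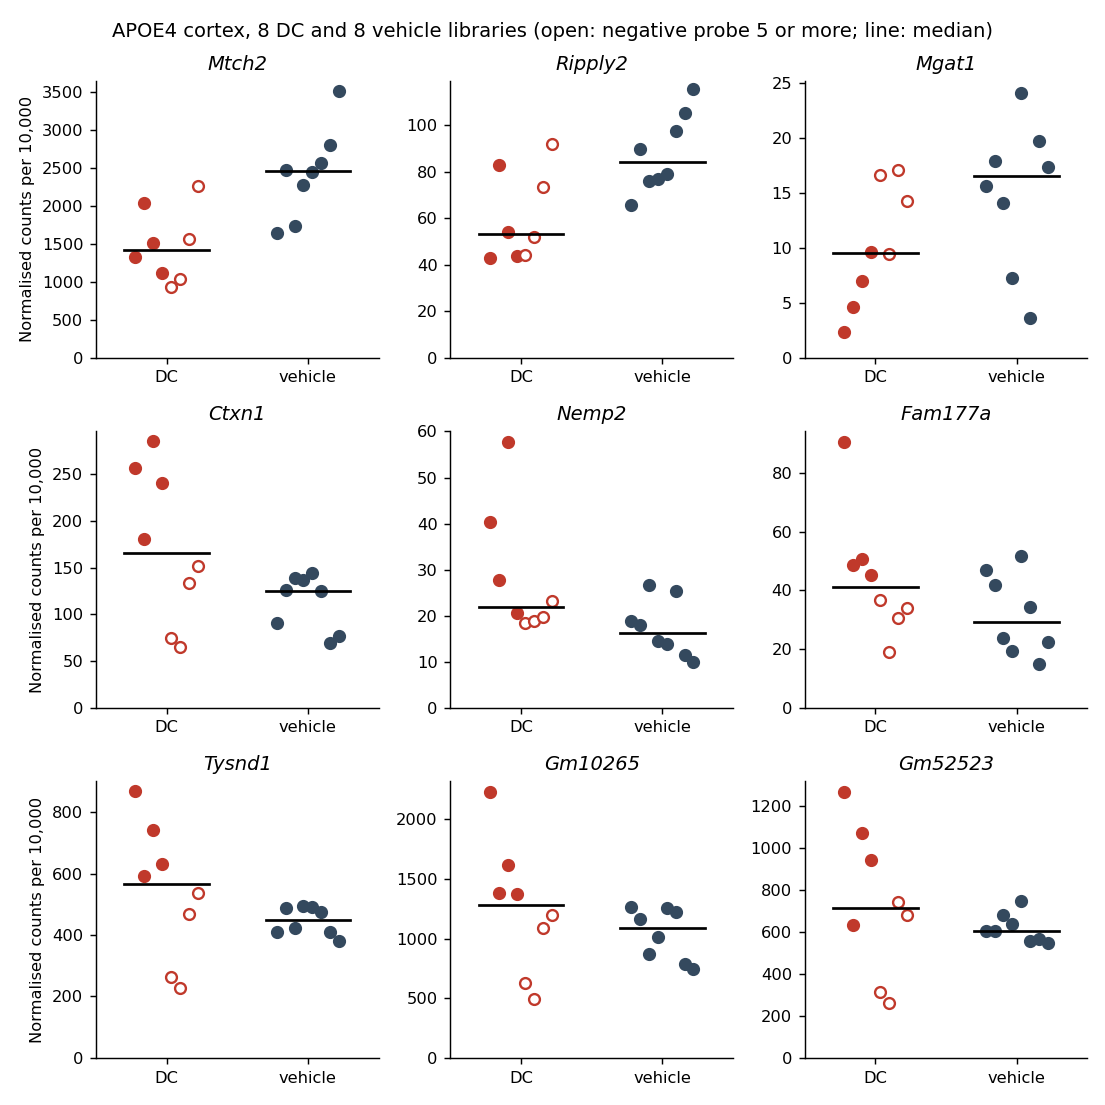
Normalised counts (per 10000 counts of the 122 genes) of the 9 genes that passed the test without DC replicates 5 to 8, for 8 DC and 8 vehicle libraries; points are libraries, open points have a negative probe of 5 or more and bars are medians. For Ctxn1, Tysnd1 and Gm10265 the 4 filled DC points lie above all vehicle points; for Mtch2 and Ripply2 the DC median lies below the vehicle median and the groups overlap.

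Mgat1, the enzyme that starts complex N-glycans, rests on very few counts. It had 1, 2, 4 and 7 counts in DC replicates 1 to 4, against 2 to 14 in vehicle libraries, with a lowest possible value of 1 in the table. Its normalised counts in DC replicates 5 to 8 lay between 9.45 and 17.1, within the vehicle range of 3.61 to 24.1. The log2 fold change was -1.23 ± 0.37 without the 4 libraries (edgeR adjusted p = 0.0248), and with the negative probe subtracted it did not pass (adjusted p = 0.124).

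In the groups of other genes no member passed in either comparison. The 3 listed DNA repair genes above background were Elof1, an elongation factor of transcription-coupled repair, Lig1, the replicative DNA ligase, and Mplkip, whose human counterpart is mutated in trichothiodystrophy. Their median log2 fold change was 0.11 with all libraries and 0.22 without the 4, beside 0.04 and -0.14 for all 122 genes. Xrn1, the main cytoplasmic 5′ to 3′ exoribonuclease, had 55.8, 108 and 164 normalised counts (lowest, median, highest) in DC libraries, against 117, 151 and 187 in vehicle libraries, with a log2 fold change of -0.43 ± 0.20 (edgeR adjusted p = 0.335), and of -0.50 ± 0.20 without the 4 libraries (adjusted p = 0.115). Trir, also listed for RNA processing, had medians of 184 in DC libraries and 153 in vehicle libraries.

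Of 11 listed leukocyte genes, 5 were above background, with a median log2 fold change of 0.17 beside 0.04 for all 122 genes, and none passed. Cd99, an adhesion protein of leukocyte passage through vessel walls, had 397, 254, 348 and 302 normalised counts in DC replicates 1 to 4, above the vehicle range of 200 to 253 on this scaling but overlapping it on the scaling of the 12 libraries, and 113 to 278 in DC replicates 5 to 8. Gimap4, a GTPase of lymphocytes, had a log2 fold change of 0.42 ± 0.26, or 0.81 ± 0.28 without DC replicates 5 to 8 (edgeR adjusted p = 0.0541), with 3.29 normalised counts in the lowest vehicle library and a vehicle median of 74.8. Rgs19, a regulator of G-protein signalling, had a log2 fold change of -0.49 ± 0.22, or -0.25 ± 0.28 without those libraries, with medians of 16.1 in DC libraries and 29.6 in vehicle libraries. Lat, the T-cell linker protein, had medians of 14.1 in DC libraries and 17.1 in vehicle libraries, and the chemokine Ccl27a 21.5 in DC libraries and 15.0 in vehicle libraries. Defining blood markers such as Ptprc and Cd3e were at background, as given above for the list.

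The secreted factors Inhbb, a subunit of activin, and Pcsk1, a prohormone convertase, had medians of 18.1 and 21.4 in DC libraries and 25.1 and 24.3 in vehicle libraries. The ribosomal protein genes Rpl3, Rps4x and Rps24, the 3 of 34 measured on their list that passed, had a median log2 fold change of -0.17 with all libraries and -0.52 without the 4, at ratios of 2.13 to 2.41 in DC libraries and 1.99 to 3.36 in vehicle libraries. The glycolytic genes Aldoa and Pkm, the endoplasmic reticulum genes Erlin2 and Tmed2, the ubiquitin genes Ubb and Lrr1 and the abundant genes Actb and Ptms all had fitted differences between -0.19 and 0.10 with all libraries. Actb, for cytoplasmic actin, had medians of 23.4 in DC libraries and 23.7 in vehicle libraries.

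Of the genes outside the lists, Hikeshi, a carrier that takes Hsp70 into the nucleus after heat stress, had the smallest p with all 16 libraries. It had 11.5, 18.3 and 34.3 normalised counts (lowest, median, highest) in DC libraries, against 18.1, 23.0 and 83.0 in vehicle libraries. The log2 fold change was -0.74 ± 0.22 (edgeR adjusted p = 0.0904), and 7 of 8 DC libraries were below the vehicle mean, to which vehicle replicate 6 contributes the value of 83.0. It was -0.59 ± 0.29 without DC replicates 5 to 8 (edgeR adjusted p = 0.167), and -0.72 ± 0.21 over 16 libraries with the pair of plate rows as a block (adjusted p = 0.0372). Fbxo38 (0.67 ± 0.27) and H2bu2 (0.55 ± 0.28), at 2.00 and 2.05 times the negative probe, had log2 fold changes of 0.01 and -0.02 without DC replicates 5 to 8. The histone gene H2aj (0.47 ± 0.25), 1520401A03Rik (0.54 ± 0.26) and Ccdc71l (0.43 ± 0.21) were on the higher side, and Gm46840 (-0.49 ± 0.20), Olfr655 (-0.42 ± 0.20) and Chic2 (-0.41 ± 0.21) on the lower side, with edgeR adjusted p from 0.267 to 0.368.

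Whether the DC difference depended on genotype was tested as an interaction with APOE3 cortex, where all APOE3 libraries were on another plate, so that genotype and plate cannot be told apart. No gene passed (0 of 122, 0%; 18, or 14.8%, at an unadjusted p under 0.05; edgeR, regions as the unit, with the caution on shared animals). The smallest p was that of Cd99, with a difference between the log2 fold changes of 1.06 ± 0.29 (edgeR adjusted p = 0.0607). Its normalised counts had medians of 266 in APOE4 DC cortex and 227 in APOE4 vehicle cortex, and of 205 in APOE3 DC cortex and 374 in APOE3 vehicle cortex. Fdx2 followed at 0.89 ± 0.33 and Camk2n1 at -1.44 ± 0.50 (both adjusted p = 0.226).

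Leaving out the 6 cortex libraries with a negative probe of 5 or more, all of them APOE4, changed this result: 17 genes then passed the interaction test, 8 with a positive and 9 with a negative difference. Cd99 had a difference of 1.16 ± 0.23 (edgeR adjusted p = 0.000405), Fdx2 of 0.96 ± 0.27 and Camk2n1 of -1.98 ± 0.57 (both adjusted p = 0.0157). With the negative probe subtracted, Cd99 alone passed, both over all libraries and over those under 5. With counts summed over runs of wells, fitted to all libraries only, no gene passed the interaction test. Mtch2 and Ripply2, which were not past the threshold in APOE4 with all 16 libraries, had log2 fold changes in APOE4 and APOE3 of -0.72 ± 0.22 and -1.51 ± 0.23 for Mtch2, and of -0.54 ± 0.22 and -1.27 ± 0.25 for Ripply2. The differences between genotypes, 0.79 ± 0.31 and 0.73 ± 0.33, did not pass (edgeR adjusted p = 0.233 and 0.282). Within APOE3 cortex, 7 of 122 genes passed between DC and vehicle, all lower in DC (edgeR, regions as the unit). They were Cd99, Erlin2, Gm33888, Gm34733, Mtch2, Ripply2 and Xrn1. This count moved with the setting: 3 passed with counts summed over runs of wells and 2 with scaling to the negative probe, all lower. With the negative probe subtracted 9 passed, 4 higher and 5 lower. Mtch2 and Ripply2 passed in each of these settings.

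DC and DD share doxorubicin and differ in the second drug, and were compared directly with no vehicle libraries in the contrast. No gene passed (0 of 122, 0%; 4, or 3.28%, at an unadjusted p under 0.05; edgeR, regions as the unit, with the same caution). The 3 smallest p belonged to Rgs19 at a log2 fold change of -0.51 ± 0.21, the glycolytic enzyme gene Pkm at 0.61 ± 0.27 and the splicing factor gene Snrpn at 0.54 ± 0.26, each with an adjusted p of 0.963. For Ctxn1 the difference was 0.00 ± 0.22 and for Mtch2 -0.11 ± 0.22. Against the vehicle libraries they share, DC and DD had log2 fold changes of -0.72 ± 0.22 and -0.61 ± 0.22 for Mtch2, and of 0.61 ± 0.23 and 0.60 ± 0.23 for Ctxn1.

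**Figure D4:**
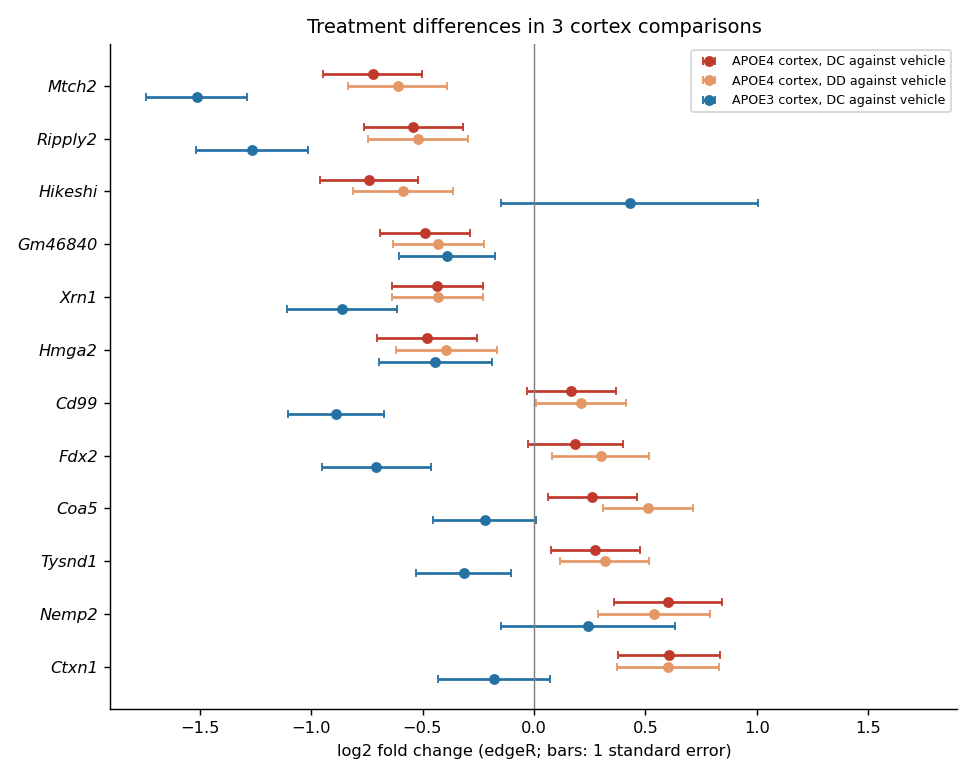
Log2 fold change with 1 SE for 12 genes in APOE4 cortex DC against vehicle, APOE4 cortex DD against vehicle and APOE3 cortex DC against vehicle (edgeR, 8 libraries a group). Mtch2 and Ripply2 are below 0 in all 3 comparisons; the first 2 comparisons share their vehicle libraries.

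The DC difference in cortex was also tested against that in hippocampus of APOE4 mice, on the same plate. There 2 of 122 genes passed (1.64%; 21, or 17.2%, at an unadjusted p under 0.05; edgeR, regions as the unit, with the same caution). Mplkip differed by 2.80 ± 0.69 (adjusted p = 0.0147), and this rested on vehicle hippocampus replicate 3, with 484 counts against 4 to 22 in the other vehicle hippocampus libraries; without it the difference was 0.34 ± 0.35 (adjusted p = 0.644). Gm9758 differed by -1.66 ± 0.43 (adjusted p = 0.0163). Its counts were 2 to 104 in DC hippocampus and 1 to 4 in vehicle hippocampus, and the negative probe was 1.63 to 93.1 in DC hippocampus and 1.72 to 4.10 in vehicle hippocampus. Leaving out libraries at a negative probe of 5 or more kept 2 of 8 DC hippocampus libraries, and neither gene passed: the differences were 2.80 ± 1.25 for Mplkip and -0.98 ± 0.78 for Gm9758 (edgeR adjusted p = 0.604 and 0.717). With counts summed over runs they were 3.24 and -1.65 (both adjusted p = 0.0528). Mtch2 had log2 fold changes of -0.72 ± 0.22 in cortex and -0.94 ± 0.35 in hippocampus, and Ctxn1 of 0.61 ± 0.23 in cortex and -0.49 ± 0.32 in hippocampus; neither difference between regions passed (edgeR adjusted p = 0.889 and 0.224).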

How the data were processed

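GeoMx libraries were sequenced on an Illumina NovaSeq per the labels' protocols, and the submitters' processing notes name mm10; no counting software is given in the sources used here. The authors deposited expected counts, 1 row for each gene and 1 for the negative probe, without scaling to depth; all but 4 rows are whole numbers, and the lowest value is 1 in all 16 libraries. Values were rounded. Genes were kept where the median ratio to the negative probe over the 16 libraries exceeded 2; 121 of 122 matched RefSeq for positions. edgeR 4.0.16 (R 4.3.3; TMM, quasi-likelihood F test, Benjamini-Hochberg over the 122 genes) was fitted to all 49 cortex libraries in 6 groups, and to the 48 APOE4 libraries for the regional contrast. Errors are SE. Library measures were tested by two-sided exact permutation (scipy 1.17.1). Alternatives used limma 3.58.1 and DESeq2 1.42.0. Regions are not tied to animals by the labels, so p-values measure the spread between regions. The edgeR fit was tested on simulated counts, drawn independently for each library at the same dispersion for all genes. That simulation held no shared animals, shared runs or raised background, so it does not cover those features of the data. No libraries were identical. The members, the gene lists and the rule for named genes (the 10 smallest p in each direction, genes past the threshold in any comparison, the 5 strongest, list members, and the 3 smallest p of each further contrast) were chosen with earlier results of these data known.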

Additional observations from a re-analysis of the deposited data

Results flagged for a closer look

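In 58 groups of values checked, 5 held a library far from the others of its group by Dixon's criterion, which flags about 1 in 20 groups by chance. Fam177a had 90.4 normalised counts in DC replicate 1, against 18.9 to 50.7 in the other DC libraries, and Olfr655 had 30.9 in the same library, against 18.8 to 23.1. Hikeshi had 34.3 in DC replicate 4, against 11.5 to 21.4 in the other DC libraries, and 83.0 in vehicle replicate 6, against 18.1 to 45.7 in the other vehicle libraries. The 122 genes held 7.21% of counts in vehicle replicate 1, against 8.04% to 8.75% in the other vehicle libraries.

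For 2 genes the DC difference in cortex departed from that in hippocampus (interaction test, edgeR): Mplkip at 2.80 (adjusted p = 0.0147), which rests on 1 vehicle hippocampus library, and Gm9758 at -1.66 (adjusted p = 0.0163), with 104 counts in DC hippocampus replicate 8, where the negative probe was 93.1.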

How the results depend on the processing

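With all 16 libraries, the count of genes past the threshold in DC against vehicle was 0; it was 1 with upper-quartile scaling (Mtch2), 1 with filterByExpr, 1 with the negative probe subtracted and 1 without wells F06 and F07 (Ctxn1 each time), 2 with the pair of plate rows as a block (Hikeshi, -0.72, and Mtch2, -0.72), 2 without libraries at a negative probe of 5 or more and with subtraction (Ctxn1 and Mtch2), 9 without those libraries alone, and 16 of 19962 with no filter on low values. It ran from 0 to 2 as each library was left out: Hikeshi passed without DC replicate 4 or vehicle replicate 1, 3, 7 or 8, and Mtch2 without DC replicate 8 or vehicle replicate 1. H2bu2 changed sign, to -0.016, without the libraries at a negative probe of 5 or more. The median over the 122 genes moved with scaling, from 0.04 to -0.14 on the total of all genes and -0.16 on the negative probe. Alternatives that subtract the negative probe, drop wells F06 and F07 or block on plate rows were chosen after seeing the data, as were all those of the next comparison.

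Without DC replicates 5 to 8, the count of 9 became 15 with upper-quartile scaling (7 higher, 8 lower), 7 on the total of all genes (all higher), 4 on the negative probe (all higher), 2 with subtraction, 4 with only the 12 libraries fitted, 7 with DESeq2 (all higher), 6 of 165 with genes chosen over the 12 libraries (all higher), 7 with plate rows as a block, 1 with counts summed over runs, and 1 to 16 as each library was left out; the median over the 122 genes was -0.14, and 0.18 and 0.23 on the total and the negative probe. Ctxn1 passed in 23 of 23 of these alternatives, Tysnd1 in 16, Nemp2, Gm10265 and Gm52523 in 15 each, Fam177a in 14, Mtch2 in 13, and Ripply2 in 9; Mgat1 passed in 9 of 22.

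For the genotype interaction the count of 0 became 2 with filterByExpr, 17 without libraries at a negative probe of 5 or more, 1 (Cd99) when these were left out and the negative probe subtracted, 4 without wells F06 and F07, 1 on the total of all genes, and 1 with subtraction. DC against DD stayed at 0 with upper-quartile scaling, filterByExpr, libraries at 5 or more left out, subtraction and summed runs, and was 26 of 19962 with no filter. For cortex against hippocampus the count of 2 became 0 without libraries at a negative probe of 5 or more, 0 over summed runs, 1 with subtraction, and 1 without vehicle hippocampus replicate 3. Without DC replicates 5 to 8, which were left out for their negative probe, 4 library measures changed sign. For the negative probe this follows from that choice. The vehicle libraries were all under 5 as well, and what underlies the higher share in the 122 genes was not tested. Log2 differences were -0.13 for the negative probe, -0.072 for total counts, 0.31 for the share in the 122 genes and 0.29 for the share of genes at a value of 1. Except where the construction of the alternative shows it, the cause of these changes was not tested. The planned exclusion of libraries with many genes raised alone removed none. No paired analysis was possible because the labels give no shared replicate numbers; the pair of plate rows is a position, and the labels do not say that it marks an animal, slide or batch.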
